A study of Homo sapiens with 6 samples.

Results

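The genes described here encode the cornified envelope of stratified epithelia and the S100 proteins that such epithelia make. They are 31 of the 18417 genes that the arrays measured, chosen by name, and each was read by 1 probe set with 1 gene symbol in the platform annotation. Of the members, 15 encode structural proteins of the envelope, 3 are transglutaminases, 2 are desmosomal cadherins, 7 are S100 proteins, 2 are protease inhibitors and 2 are other products of differentiation. The cells were MCF10A, a human cell line from breast epithelium that does not form tumours, and their titles also name ErbB2, a receptor tyrosine kinase. They grew for 7 days in 3-D in Matrigel, a basement membrane extract, with horse serum, insulin, cholera toxin, hydrocortisone, glutamine and antibiotics in the medium. The groups were 3 arrays labelled RB-deficient and 3 labelled RB-proficient, a comparison that asks what differs with RB, the product of the retinoblastoma gene and a brake on E2F transcription factors. All 6 samples share the line, the ErbB2 version and the culture, and the labels give no treatment, batch or separate clones. The titles tag the first group miRB and the second miNS, with no definition of either tag.

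Cornification is the last step of keratinocyte differentiation. Transglutaminases join envelope precursors such as involucrin, loricrin and the small proline-rich proteins by covalent bonds beneath the plasma membrane, and plakin proteins tie that layer to desmosomes. Many of these genes lie together in the epidermal differentiation complex of chromosome 1, next to the genes of the S100 family of small calcium-binding proteins. Some S100 proteins are also abundant in myeloid cells, and S100A8 and S100A9 join to form calprotectin, an antimicrobial and inflammatory complex. Mammary epithelial cells in culture can express several of these genes, although the breast gland is not a cornifying tissue.

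Promoter sequences came from RefSeq on GRCh38.p14 and matched 24 of the 31 members. They run from 250 bases before to 50 bases after the gene start. The letters TGANTCA, the core of the motif of AP-1 (dimers of FOS and JUN proteins), were searched on both strands, where N is any base. They occurred in 11 of 12 promoters of envelope structural genes and in 2 of 7 promoters of S100 genes, against 7.72% of all 34943 promoters of the same length. The windows below are shown because they carry that shared feature of the envelope genes. Each is written 5′ to 3′ on the strand of its gene, with the match in capitals and 12 bases on either side.
IVL, chr1:152908411-152908441, plus strand: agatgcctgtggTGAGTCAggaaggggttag
LORICRIN, chr1:153259627-153259657, plus strand: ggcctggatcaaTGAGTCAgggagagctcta
FLG, chr1:152325300-152325330, minus strand: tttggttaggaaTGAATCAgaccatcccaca
FLG2, chr1:152360052-152360082, minus strand: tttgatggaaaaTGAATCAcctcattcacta
SPRR1A, chr1:152983961-152983991, plus strand: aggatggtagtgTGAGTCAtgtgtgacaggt
SPRR1B, chr1:153031050-153031080, plus strand: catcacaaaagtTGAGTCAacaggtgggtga
SPRR1B, chr1:153031080-153031110, plus strand: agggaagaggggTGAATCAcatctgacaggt
SPRR2A, chr1:153057691-153057721, minus strand: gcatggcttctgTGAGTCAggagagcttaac
SPRR3, chr1:153001567-153001597, plus strand: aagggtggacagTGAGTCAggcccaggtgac
CRNN, chr1:152414338-152414368, minus strand: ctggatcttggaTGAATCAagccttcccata
RPTN, chr1:152159305-152159335, minus strand: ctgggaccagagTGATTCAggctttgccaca
SBSN, chr19:35528466-35528496, minus strand: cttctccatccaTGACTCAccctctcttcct
SBSN, chr19:35528364-35528394, minus strand: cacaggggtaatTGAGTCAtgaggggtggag
In these envelope genes the match began between 48 and 197 bases before the start. The central base was G or C in 8 of the 13 windows and A or T in the other 5. The only envelope gene with a promoter but no match was CNFN, which encodes cornifelin. The TATA box, here the letters TATAAA, was found in 7 of 12 envelope promoters, in each of them with the first base 29 to 31 bases before the start, against 11.6% of all promoters. GCAAT, part of the motif of C/EBP factors, occurred in 13 of 24 member promoters, against 24.5% of all promoters. Matches of different motifs overlapped in 0 member promoters. A match is a description of these letters and does not show that a factor binds there.

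**Figure D1:**
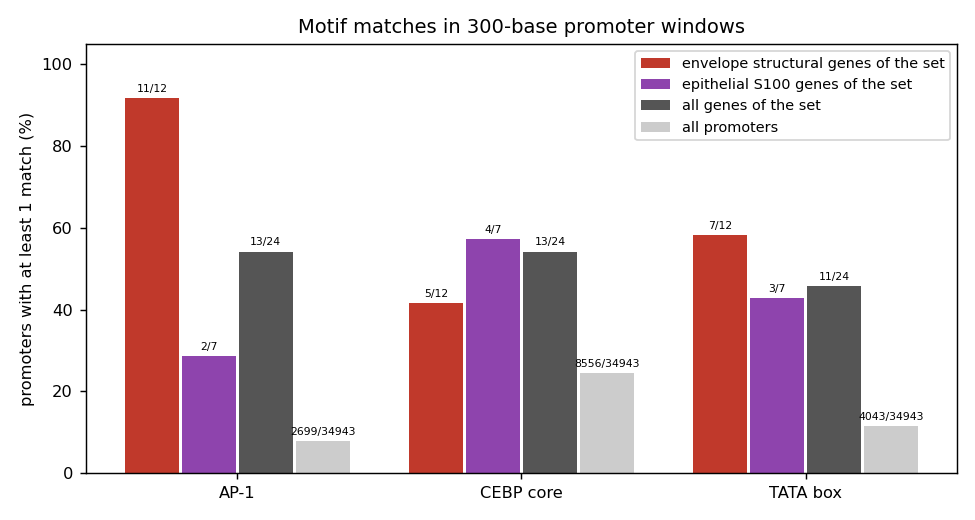
Share of 300-base promoters with at least 1 match (%, vertical axis) for 3 motifs, in envelope structural genes, S100 genes, all members with a promoter and all RefSeq promoters, with counts above the bars. AP-1 letters are in 11 of 12 envelope promoters, against 7.72% of all promoters.

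The promoters of S100A9 and S100A8 are shown because these partners differed in their values, as given further on. The 250 bases before each start are given 5′ to 3′ on the strand of the gene, with capitals for GCAAT (on either strand) and TATAAA.
S100A9, chr1:153357604-153357853, plus strand: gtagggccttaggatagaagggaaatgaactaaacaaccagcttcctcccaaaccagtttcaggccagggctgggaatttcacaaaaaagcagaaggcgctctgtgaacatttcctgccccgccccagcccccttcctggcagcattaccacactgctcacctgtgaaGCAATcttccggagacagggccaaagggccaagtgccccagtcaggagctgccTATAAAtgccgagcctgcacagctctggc
S100A8, chr1:153391189-153391438, minus strand: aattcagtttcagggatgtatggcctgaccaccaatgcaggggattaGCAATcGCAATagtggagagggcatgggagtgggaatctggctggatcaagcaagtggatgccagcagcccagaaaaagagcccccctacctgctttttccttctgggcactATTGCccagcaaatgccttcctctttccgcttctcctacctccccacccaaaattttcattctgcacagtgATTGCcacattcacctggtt
S100A8 had 4 matches of GCAAT in the searched window and S100A9 had 1, and a TATAAA match, beginning 29 bases before the start, was found for S100A9 only. Across these 250 bases the sequences aligned with 51.6% identical bases.

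All values below are log2 intensities with the 6 arrays brought to 1 median, where intensities under 1 were set to 1, so that 0 is the floor. Differences are RB-deficient minus RB-proficient on the log2 scale, with the standard error (SE) from limma, n = 3 per group, and Benjamini-Hochberg adjusted p-values taken over all 18417 genes. Intensities of different probe sets are not compared with each other. The arrays labelled RB-deficient 1 and 2 stood apart: across all genes, correlations among arrays labelled RB-deficient were 0.67 to 0.75, against 0.90 to 0.92 among RB-proficient arrays, while the array labelled RB-deficient 3 correlated with the RB-proficient arrays at 0.83 to 0.88. Arrays 1 and 2 of the RB-deficient group also differed from each other, with a correlation of 0.67. In them 4.71% and 1.62% of genes were at the floor, against 0.33% to 0.68% in the other arrays. RB1, which encodes RB, had 3.45, 5.09 and 6.04 in the arrays labelled RB-deficient, against 7.01, 5.77 and 7.65 in the RB-proficient arrays, so RB1 did not separate the groups (array 3 of the first exceeded array 2 of the second) and directions rest on the labels. ERBB2, which encodes ErbB2, had 3.99, 3.67 and 4.19 in the arrays labelled RB-deficient, against 4.87, 5.48 and 5.41. It was lower without overlap (difference −1.31, SE 0.48), as were 15.3% of all genes. Of 8 measured reference genes, TUBB (difference −2.19), ACTB (−1.92) and GAPDH (−1.23) were lower without overlap. The groups overlapped for TBP (−0.94), PPIA (−0.77), GUSB (−0.55), HPRT1 (0.24) and B2M (0.02), so ACTB is near the lower end of the list. Of the 31 members 1, S100A9, had a difference below that of ACTB, as did 5.73% of all genes. Directions are therefore relative to the median of each array. With ACTB held equal over the arrays instead, a scaling added after the data were seen that rests on this 1 gene, 30 of 31 members were higher, where only 5.73% of all genes were lower. Of these members 18 were past an adjusted p of 0.05 by limma, beside 48.7% of all genes called. The median difference was 1.67 for the members and 1.70 for all genes. With that scaling S100A9 remained lower, at −0.47, but its groups overlapped. At that setting S100A16, PI3, PPL and CSTA were at 0.33, 0.20, 0.91 and 1.55. The labels do not state whether the replicates were separate cultures, and the p-values then describe only how these samples spread. In such bulk samples, fewer cells that express a gene and less RNA per cell cannot be told apart.

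With median scaling the members differed in both directions. Of 31 members, 17 had a lower mean in the arrays labelled RB-deficient and 14 a higher one, against 58.6% of all genes lower and 41.4% higher. S100A9, S100A16 and the elastase inhibitor PI3 had lower levels in each array labelled RB-deficient than in any RB-proficient array, by 5.22-fold, 3.01-fold and 3.29-fold. FLG2, SPRR2D and the envelope cross-linking enzyme TGM1 were higher in every array labelled RB-deficient, FLG2 by 2.60-fold and TGM1 by 2.17-fold. No fold is given for SPRR2D, whose RB-proficient values all lay below an intensity of 16 with 1 at the floor, and whose log2 difference of 2.61 was 0.32 with a floor of 16. By limma 0 members passed an adjusted p of 0.05, where 0.00543% of all genes did, and the smallest adjusted p of a member was 0.206, for S100A9.

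The groups did not overlap for 9 of 31 members. Lower values without overlap were found for 5 members (16.1%: PPL, S100A9, S100A16, PI3 and CSTA), against 15.3% of all genes. Higher values without overlap were found for 4 members (12.9%: FLG2, SPRR2D, TGM1 and CALML5), against 7.12% of all genes. At an unadjusted p under 0.05 there were 4 lower members (12.9%: S100A9, S100A14, S100A16 and PI3), against 10.8% of all genes. In the other direction there were 2 members (6.5%: FLG2 and SPRR2D), against 2.85% of all genes. The lower shares are thus near the background. The higher shares rest on only 4 and 2 members and were not tested. Both counts include SPRR2D, whose difference depends on how low values are treated. The median difference over the members was −0.24 and over all genes −0.21. Without RB-proficient array 1 or 2 the median of the members was 0.05, and without the arrays labelled RB-deficient 1 and 2 it was −0.05, so it has no stable direction.

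**Figure D2:**
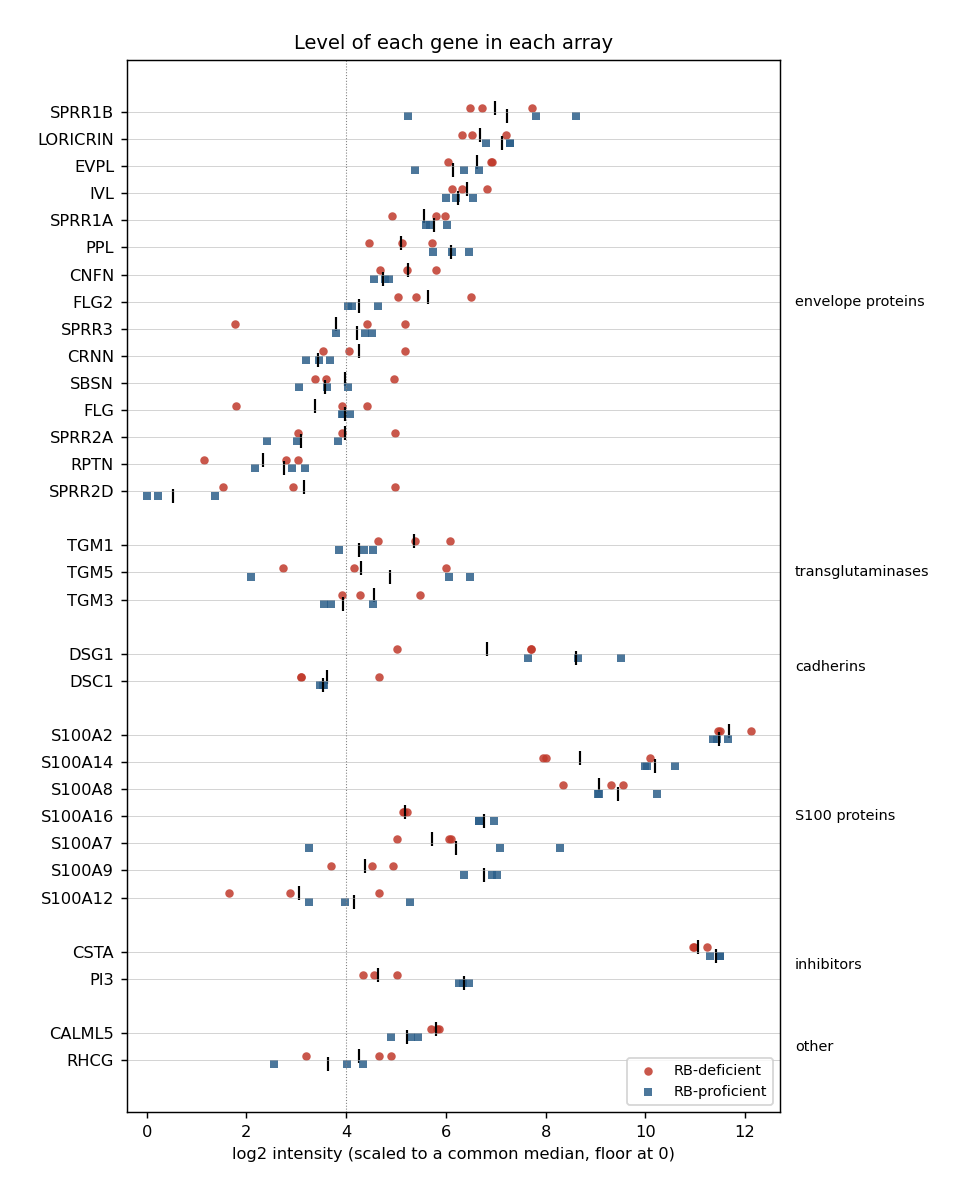
Log2 intensity (horizontal axis) of the 31 members in each array, grouped by role; circles are arrays labelled RB-deficient, squares are RB-proficient arrays, black ticks are group means, and the dotted line marks an intensity of 16. S100A9, S100A16 and PI3 show separate groups, while S100A7, TGM5 and SPRR1B spread widely in the RB-proficient arrays.

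The differences of the structural envelope genes ran both ways: 7 of 15 were lower and 8 higher, beside 58.6% and 41.4% of all genes, with a median of 0.17. Neither direction covers the group. IVL encodes involucrin, an early scaffold of the envelope. It had 6.82, 6.33 and 6.12 in the arrays labelled RB-deficient, against 6.01, 6.21 and 6.54 in the RB-proficient arrays. The groups overlapped, and the difference was 0.17 (SE 0.48, 95% interval −0.91 to 1.25). LORICRIN, which encodes the main late protein of the epidermal envelope, had 7.20, 6.32 and 6.52 in the arrays labelled RB-deficient, against 7.28, 6.81 and 7.28 in the RB-proficient arrays. The groups overlapped here too, with a difference of −0.45 (SE 0.49, 95% interval −1.56 to 0.66).

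FLG encodes filaggrin, which bundles keratin filaments, and FLG2 a related protein with similar repeats. FLG2 had 5.39, 6.50 and 5.03 in the arrays labelled RB-deficient, against 4.63, 4.03 and 4.13 in the RB-proficient arrays. The groups were separate, and array 2 of the RB-deficient group was the highest. The difference was 1.38 (SE 0.55, adjusted p 0.315 by limma), and 0.77 with only the array labelled RB-deficient 3 in that group. FLG itself had 3.92, 1.79 and 4.41 in the arrays labelled RB-deficient, against 4.08, 3.94 and 3.91 in the RB-proficient arrays. Only the array labelled RB-deficient 2 was low, and without it the FLG difference was 0.19 in place of −0.61.

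The small proline-rich proteins are short, cross-linked components of the envelope. SPRR2D had 2.94, 4.97 and 1.53 in the arrays labelled RB-deficient, against 1.37, 0.23 and 0 in the RB-proficient arrays. It was dim throughout: 5 of its 6 values lay below an intensity of 16, and RB-proficient array 3 was at the floor. Its groups did not overlap, with a difference of 2.61 (SE 0.84, adjusted p 0.253 by limma). That size depends on how low values are treated, since it was 0.32 with a floor of 16, 0.68 with an offset of 16, and 1.70 without the array labelled RB-deficient 2. SPRR2A had 4.99, 3.03 and 3.92 in the arrays labelled RB-deficient, against 3.83, 3.02 and 2.41 in the RB-proficient arrays, a difference of 0.89 (SE 0.64) with overlapping groups. SPRR2 genes are near-identical copies, and how far their probe sets share signal is unknown here.

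SPRR1B, which squamous cells make on stress and differentiation, had 6.48, 7.73 and 6.72 in the arrays labelled RB-deficient, against 8.61, 7.81 and 5.24 in the RB-proficient arrays. RB-proficient array 3 stood far below the other RB-proficient arrays, so the groups overlapped and the difference of −0.24 had an SE of 0.84. SPRR1A, its close relative, had 5.98, 5.79 and 4.91 in the arrays labelled RB-deficient, against 6.02, 5.61 and 5.69 in the RB-proficient arrays, with a difference of −0.21 (SE 0.51). SPRR3, best known from the oesophagus, had 1.77, 5.18 and 4.42 in the arrays labelled RB-deficient, against 3.79, 4.38 and 4.51 in the RB-proficient arrays. The array labelled RB-deficient 1 was the lowest by far, and the difference of −0.44 became 0.57 without it.

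Among the plakins, PPL and EVPL encode periplakin and envoplakin, which join the envelope to desmosomes and keratin filaments. PPL had 4.47, 5.12 and 5.72 in the arrays labelled RB-deficient, against 5.74, 6.46 and 6.13 in the RB-proficient arrays. The groups of PPL were separated by a narrow gap between the array labelled RB-deficient 3 and RB-proficient array 1, and the difference was −1.01 (SE 0.53, adjusted p 0.428 by limma). With only the array labelled RB-deficient 3 in that group it was −0.39, and with quantile normalization, no scaling or centring on the gene median the groups of PPL overlapped. EVPL had 6.92, 6.91 and 6.05 in the arrays labelled RB-deficient, against 6.37, 6.67 and 5.37 in the RB-proficient arrays. Its groups overlapped, with a difference of 0.49 (SE 0.55), so the 2 partner plakins had differences of opposite sign, and whether these differ from each other was not tested.

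The other envelope genes overlapped between the groups. CNFN had 5.22, 5.80 and 4.68 in the arrays labelled RB-deficient, against 4.79, 4.56 and 4.85 in the RB-proficient arrays, a difference of 0.50 (SE 0.50). CRNN, which encodes cornulin of squamous epithelia, had 3.53, 5.18 and 4.06 in the arrays labelled RB-deficient, against 3.68, 3.46 and 3.19 in the RB-proficient arrays, a difference of 0.81 (SE 0.56). Both were highest in the array labelled RB-deficient 2. SBSN, which encodes suprabasin, differed by 0.41 (SE 0.58) and RPTN, which encodes repetin, by −0.42 (SE 0.62). Every value of RPTN lay below an intensity of 16.

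**Figure D3:**
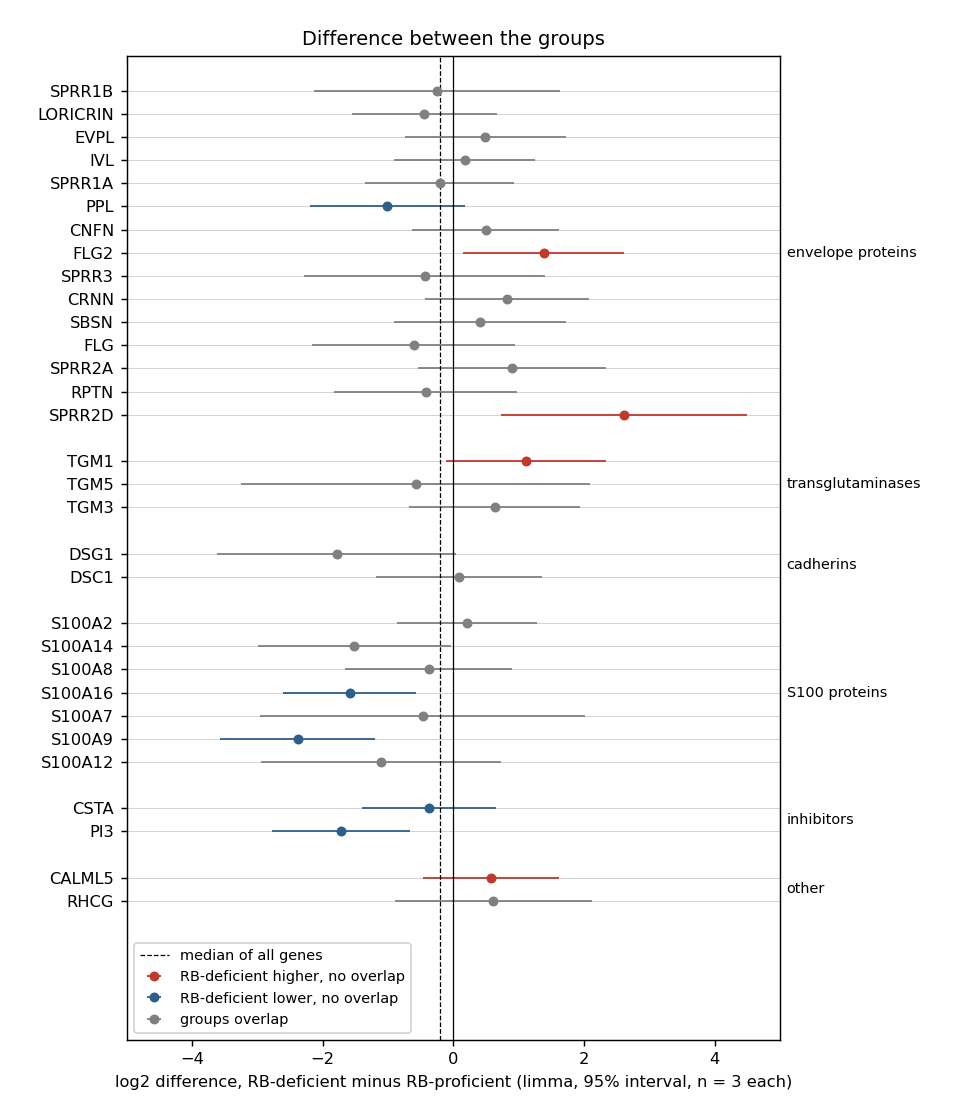
Log2 difference, RB-deficient minus RB-proficient, of each member (horizontal axis; point and 95% interval from limma, n = 3 per group), coloured by whether the groups overlapped, with the median of all genes as a dashed line. Points lie on both sides of 0 among the envelope proteins, and 6 of the 7 S100 points lie below it with median scaling. With ACTB held equal 6 of the 7 lie above 0, where only 5.73% of all genes are lower.

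Of the transglutaminases 2 were higher and 1 lower. TGM1, the membrane-anchored enzyme of keratinocytes, had 5.38, 6.08 and 4.63 in the arrays labelled RB-deficient, against 3.85, 4.54 and 4.36 in the RB-proficient arrays. Its groups did not overlap, although the array labelled RB-deficient 3 lay only just above RB-proficient array 2, and the difference was 1.11 (SE 0.54, adjusted p 0.399 by limma). It was 0.38 with only the array labelled RB-deficient 3 in that group. TGM3, a soluble enzyme activated by proteolysis, had 5.49, 3.92 and 4.28 in the arrays labelled RB-deficient, against 3.70, 3.55 and 4.54 in the RB-proficient arrays, a difference of 0.63 (SE 0.58). TGM5 had 2.74, 4.16 and 6.0 in the arrays labelled RB-deficient, against 6.49, 6.06 and 2.08 in the RB-proficient arrays. Its values spanned over 4 log2 units within the RB-proficient group alone, so the difference of −0.58 (SE 1.19) is within the spread of replicates.

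DSG1 and DSC1 are the desmosomal cadherins of the upper layers of stratified epithelia. DSG1 had 7.71, 5.03 and 7.71 in the arrays labelled RB-deficient, against 9.50, 7.64 and 8.65 in the RB-proficient arrays. The array labelled RB-deficient 2 was by far the lowest, while the other 2 of its group reached slightly above RB-proficient array 2. The difference of −1.78 (SE 0.81, adjusted p 0.372 by limma) became −0.89 without the array labelled RB-deficient 2. DSC1 had 4.66, 3.09 and 3.08 in the arrays labelled RB-deficient, against 3.54, 3.48 and 3.56 in the RB-proficient arrays. The RB-proficient values lay within 0.1 of each other, and the array labelled RB-deficient 1 stood above all others, giving a difference of 0.09 (SE 0.57).

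Of the S100 genes 6 of 7 were lower with median scaling, where 58.6% of all genes were, with a median difference of −1.11. The groups did not overlap for 2 of the lower ones, where 15.3% of all genes were lower in this way. With ACTB held equal, 6 of 7 were higher, where only 5.73% of all genes were lower, so this count is near the background. S100A9 had 4.93, 4.53 and 3.69 in the arrays labelled RB-deficient, against 6.92, 7.03 and 6.36 in the RB-proficient arrays. The groups were separated by more than 1 log2 unit, and the difference was −2.39 (SE 0.53, 95% interval −3.57 to −1.20, adjusted p 0.206 by limma). It stayed between −2.66 and −2.04 with each array left out in turn. With an offset of 16 it passed over all genes (difference −1.74, adjusted p 0.0392 by limma), where 1.05% of all genes did in place of 0.00543%. S100A8, its partner in calprotectin, had 9.56, 9.30 and 8.35 in the arrays labelled RB-deficient, against 10.22, 9.05 and 9.07 in the RB-proficient arrays. Here the groups overlapped, with RB-proficient array 1 the highest and the array labelled RB-deficient 3 the lowest, and the difference was −0.38 (SE 0.57, 95% interval −1.65 to 0.90).

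The gap between the partners was compared within each array, a comparison chosen after the values were seen. In the arrays labelled RB-deficient S100A9 minus S100A8 was −4.63, −4.78 and −4.66, against −3.31, −2.03 and −2.71 in the RB-proficient arrays. The groups did not overlap, whatever the scaling of the arrays, and the means differed by −2.01. No p is given, since the pair was picked for this separation. The size of the gap itself has no meaning, since the 2 probe sets have different scales.

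S100A16, a widely expressed family member, had 5.22, 5.15 and 5.16 in the arrays labelled RB-deficient, against 6.66, 6.96 and 6.67 in the RB-proficient arrays. The values of the arrays labelled RB-deficient lay within 0.1 of each other and well below the RB-proficient ones. The difference was −1.59 (SE 0.46, adjusted p 0.227 by limma), between −1.64 and −1.49 with each array left out. With a floor of 16 it passed over all genes (adjusted p 0.0415 by limma), where 0.315% of all genes did in place of 0.00543%. S100A14, the neighbouring gene, had 10.10, 7.95 and 8.02 in the arrays labelled RB-deficient, against 10.03, 9.99 and 10.59 in the RB-proficient arrays. The array labelled RB-deficient 1 lay among the RB-proficient values and the other 2 lay far below, so that the difference was −1.51 (SE 0.66, adjusted p 0.355 by limma) and −2.22 without that array. S100A2, a p63 and p53 target of basal epithelial cells, had 12.11, 11.46 and 11.49 in the arrays labelled RB-deficient, against 11.45, 11.35 and 11.65 in the RB-proficient arrays. It was the only S100 member with a higher mean, by 0.21 (SE 0.48), and its groups overlapped.

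S100A7, or psoriasin, is induced in inflamed and differentiating keratinocytes. It had 5.02, 6.10 and 6.07 in the arrays labelled RB-deficient, against 7.08, 8.28 and 3.24 in the RB-proficient arrays. RB-proficient array 3 was the lowest of all 6 and the other RB-proficient arrays the highest, so the difference of −0.47 (SE 1.11) was within the spread of replicates. Without RB-proficient array 3 the groups of S100A7, TGM5 and SPRR1B did not overlap, with differences of −1.95, −1.98 and −1.24. This omission is singled out after the values were seen, and with it 17.9% of all genes were lower without overlap. S100A7A is a near-identical copy, and its 250 bases before the start aligned with 96.4% identity to those of S100A7, so how far the probe sets share signal is uncertain. S100A12, another myeloid and epithelial family member, had 2.87, 1.65 and 4.65 in the arrays labelled RB-deficient, against 3.25, 5.27 and 3.97 in the RB-proficient arrays, a difference of −1.11 (SE 0.82) with overlapping groups.

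PI3 and CSTA encode inhibitors of proteases that are themselves cross-linked into the envelope. PI3, which encodes the neutrophil elastase inhibitor elafin, had 4.34, 4.55 and 5.02 in the arrays labelled RB-deficient, against 6.46, 6.35 and 6.26 in the RB-proficient arrays. The gap between the groups was over 1 log2 unit, with a difference of −1.72 (SE 0.47, adjusted p 0.214 by limma). It was between −1.91 and −1.57 with each array left out. With only the array labelled RB-deficient 3 in its group, the difference was −1.33 for PI3, −3.08 for S100A9, −1.61 for S100A16 and −2.19 for S100A14. CSTA, which encodes the cysteine protease inhibitor cystatin A, had 11.24, 10.98 and 10.96 in the arrays labelled RB-deficient, against 11.50, 11.29 and 11.49 in the RB-proficient arrays. The groups were separate but close, with a difference of −0.37 (SE 0.46, 95% interval −1.39 to 0.66), and after quantile normalization they overlapped.

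CALML5, a calmodulin-like protein of differentiating keratinocytes, had 5.70, 5.82 and 5.85 in the arrays labelled RB-deficient, against 5.30, 4.91 and 5.43 in the RB-proficient arrays. No array overlapped the other group, and the difference was 0.58 (SE 0.46, adjusted p 0.601 by limma). With EPCAM held equal the groups overlapped. RHCG, an ammonium transporter of squamous epithelia and kidney, had 4.89, 3.20 and 4.65 in the arrays labelled RB-deficient, against 4.02, 4.35 and 2.55 in the RB-proficient arrays. Each group of RHCG had 1 low array, and the difference was 0.61 (SE 0.67).

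**Figure D4:**
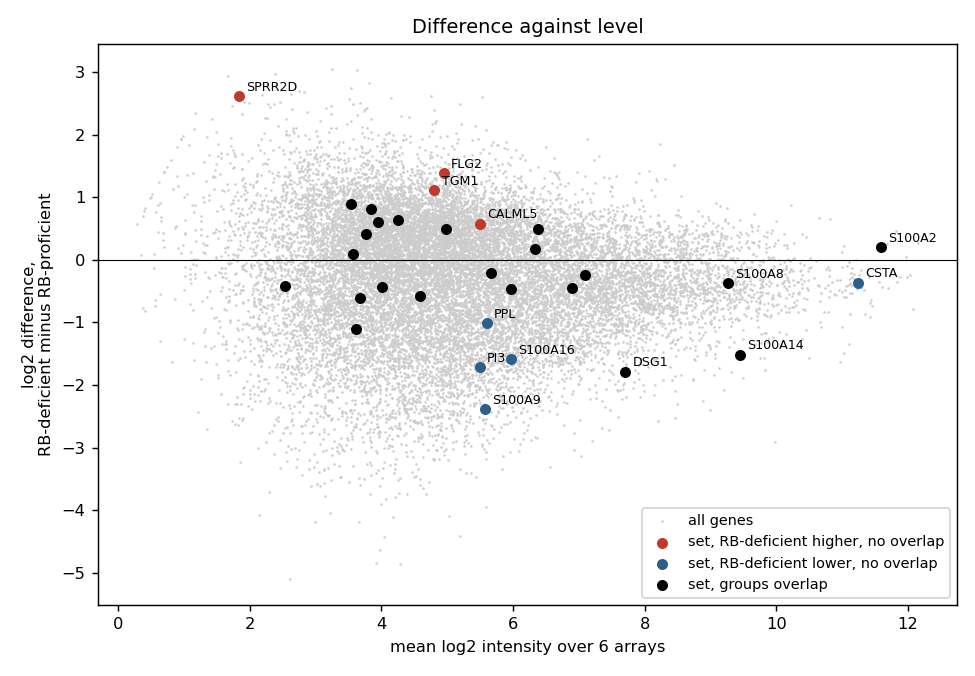
Log2 difference, RB-deficient minus RB-proficient (vertical axis), against mean log2 intensity over the 6 arrays (horizontal axis) for all 18417 genes in grey and the 31 members in colour. The members spread over the cloud of all genes on both sides of 0 with median scaling (30 of 31 are above 0 with ACTB held equal, where 5.73% of all genes are below 0), with SPRR2D at its dim upper edge.

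Members were also split at the median level of all genes. Of the 18 members above it 12 were lower, with a median difference of −0.37, where all genes above it had −0.31 and 64.2% lower. Of the 13 members below it 5 were lower, with a median of 0.41, where all genes below it had −0.08 and 53.1% lower. The SD was higher in the arrays labelled RB-deficient for 23 of 31 members, with a median SD of 0.72, against 0.36 in the RB-proficient arrays, where all genes had 0.84 and 0.40.

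Of the members, 18 lie on chromosome 1, all of them in the epidermal differentiation complex. In RefSeq order on GRCh38.p14 the interval from S100A10 to S100A1 held 63 protein-coding genes, of which 58 were measured. Neighbours did not share a direction over the interval as a whole: 28 were lower and 30 higher, with a median difference of 0.03. Of all genes 58.6% were lower and 41.4% higher. The groups did not overlap for 6 lower and 5 higher genes of the 58, where this held for 15.3% and 7.12% of all genes. The LCE genes, which encode late envelope proteins, were higher for 11 of 17, with a median of 0.32, and 3 lower and 2 higher ones had no overlap. The SPRR genes had a median of −0.20 over 10 measured. The S100 genes had a median of −0.30 over 16, with 9 lower and 7 higher. S100A10, S100A6 and S100A13, named here after their values were seen, differed by 0.24, 0.04 and 0.06.

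**Figure D5:**
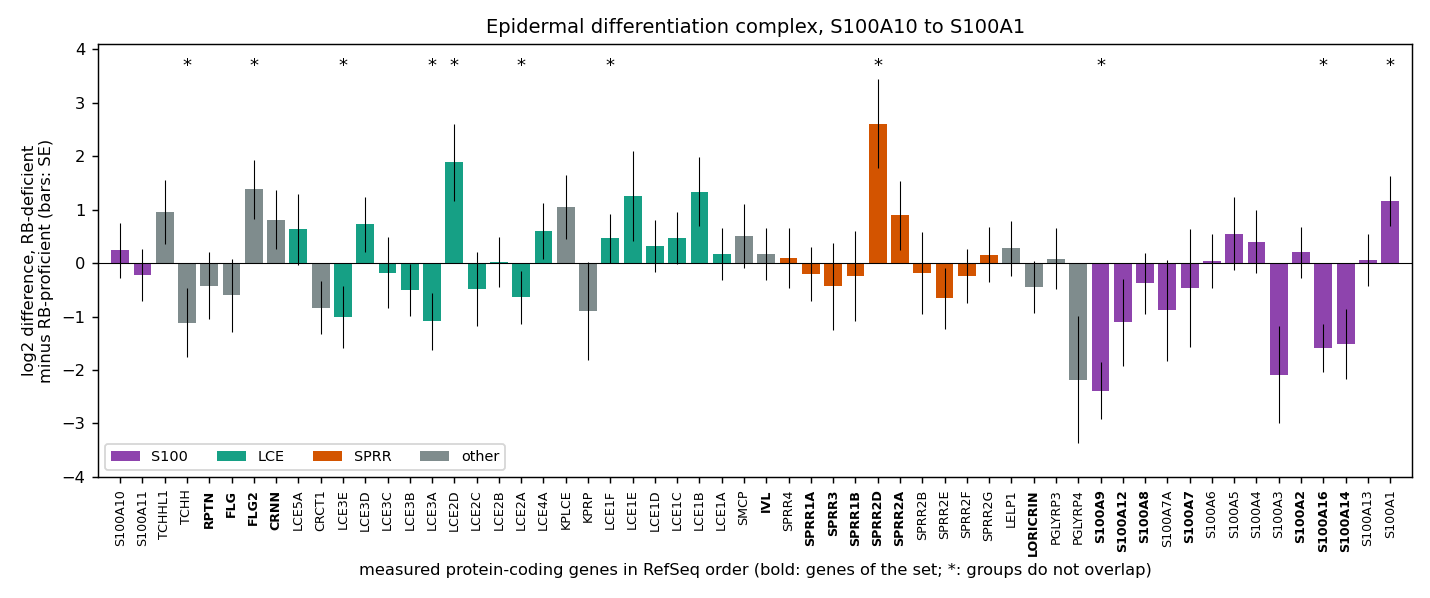
Log2 difference, RB-deficient minus RB-proficient (bars, with SE), of the 58 measured protein-coding genes of the epidermal differentiation complex in RefSeq order, coloured by family, with members in bold and a star where the groups did not overlap. With median scaling bars point both ways in each family, from −2.39 for S100A9 to 2.61 for SPRR2D.

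Other genes of the same programme were taken from lists written with earlier results of these data known, and 0 of their genes passed over all genes by limma. Of 38 measured further genes of the complex 15 were lower and 23 higher, with a median difference of 0.09, beside 58.6% and 41.4% of all genes. At an unadjusted p under 0.05, where 2.85% of all genes were higher and 10.8% lower, there were 2 higher genes, LCE2D and S100A1, and 1 lower gene, S100A3, which was singled out after its values were seen. LCE2D had 3.62, 5.98 and 3.31 in the arrays labelled RB-deficient, against 2.16, 2.43 and 2.66 in the RB-proficient arrays, and S100A1 had 4.14, 3.94 and 4.54 in the arrays labelled RB-deficient, against 3.20, 2.90 and 3.04 in the RB-proficient arrays. Both had no overlap between the groups, whereas S100A3 did (difference −2.09, SE 0.91). TCHH, which encodes trichohyalin of the hair follicle, was lower without overlap (difference −1.12, SE 0.64), and so was LCE3A (difference −1.09, SE 0.53).

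Regulators of epidermal differentiation were lower for 18 of 30 (60%, where 58.6% of all genes were), with a median difference of −0.69, and the groups did not overlap for 9 lower and 2 higher genes of the 30, where this held for 15.3% and 7.12% of all genes. At an unadjusted p under 0.05 there were 4 lower and 0 higher regulators, where 10.8% and 2.85% of all genes were. EHF, an ETS factor of epithelia, had 5.64, 5.16 and 7.54 in the arrays labelled RB-deficient, against 8.35, 8.34 and 7.85 in the RB-proficient arrays. The grainyhead factor GRHL3, which activates TGM1 in mouse epidermis, had 5.62, 4.99 and 6.08 in the arrays labelled RB-deficient, against 6.39, 7.25 and 7.23 in the RB-proficient arrays. Its groups did not overlap, with a difference of −1.39 (SE 0.53, adjusted p 0.295 by limma). GRHL2 differed by −1.51 (SE 0.57) and TFAP2A, an AP-2 factor of keratinocytes, by −1.32 (SE 0.49), also without overlap.

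The suprabasal keratins were lower for 9 of 12, where 58.6% of all genes were, with a median of −0.92. At an unadjusted p under 0.05 there were 2 lower and 0 higher, beside 10.8% and 2.85% of all genes. KRT1, a keratin of cells that leave the basal layer, had 6.30, 7.12 and 7.35 in the arrays labelled RB-deficient, against 10.58, 8.29 and 9.61 in the RB-proficient arrays. The groups were separate, with a difference of −2.57 (SE 0.66, adjusted p 0.211 by limma). Its partner KRT10 differed by −0.92 (SE 0.50), KRT4, of mucosal epithelia, by −2.89 (SE 0.86) and KRT75 by −0.91 (SE 0.52), each without overlap.

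Enzymes of envelope lipids and of processing were lower for 18 of 29, with a median of −0.33, and 3 of them were at an unadjusted p under 0.05, beside 58.6% and 10.8% of all genes. CASP14, the caspase of cornifying cells that takes part in filaggrin breakdown, had 7.15, 5.43 and 6.0 in the arrays labelled RB-deficient, against 8.37, 7.54 and 9.03 in the RB-proficient arrays. No overlap was seen, and the difference was −2.12 (SE 0.62). The membrane protease ST14 (matriptase) differed by −1.83 (SE 0.63), the lysosomal protease CTSD by −1.97 (SE 0.69) and the sphingomyelinase SMPD1 by −0.89 (SE 0.49), each lower without overlap. Serpins and secreted or surface products of stratified epithelia were lower for 16 of 26, with a median of −0.26, and 2 of them were at an unadjusted p under 0.05, beside the same shares of all genes. LYPD3, a surface protein of suprabasal keratinocytes, had 2.39, 4.19 and 4.08 in the arrays labelled RB-deficient, against 6.78, 6.20 and 6.23 in the RB-proficient arrays, a difference of −2.85 (SE 0.60, adjusted p 0.206 by limma). CLCA2 differed by −1.05 (SE 0.53), CSTB, a relative of CSTA, by −0.59 (SE 0.46) and ANXA2 by −0.53 (SE 0.46). Of 8 measured S100 receptors and other S100 genes 5 were lower, where 58.6% of all genes were, and BSG, or basigin, a surface protein reported to bind S100A9, was the only one without overlap (difference −2.44, SE 0.53).

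Markers of the cells in the culture were read beside these results. Of 12 measured epithelial identity genes 9 were lower and 5 of them had no overlap, where 58.6% and 15.3% of all genes did, and their summed linear intensity was 3426 to 4045 in the arrays labelled RB-deficient, against 5566 to 7081 in the RB-proficient arrays. The integrin subunit ITGB4 (difference −2.29, SE 0.52), the keratinocyte 14-3-3 protein SFN (−1.80, SE 0.49) and the simple keratins KRT18 (−1.27, SE 0.48) and KRT8 (−1.33, SE 0.53) were lower without overlap, and the basal keratin KRT5 (−2.40, SE 0.90) overlapped. EPCAM, an epithelial surface protein, had 10.39, 10.35 and 10.08 in the arrays labelled RB-deficient, against 10.06, 9.99 and 10.06 in the RB-proficient arrays, which was higher without overlap. KRT14 had 8.80, 7.55 and 8.20 in the arrays labelled RB-deficient, against 8.77, 8.89 and 9.0 in the RB-proficient arrays. CDH1, or E-cadherin, had 5.45, 7.66 and 8.16 in the arrays labelled RB-deficient, against 9.26, 8.42 and 8.22 in the RB-proficient arrays, lower without overlap. EPCAM, KRT14 and CDH1 were above an intensity of 16 in all 6 arrays. S100A8, S100A9 and S100A12 are also made by myeloid cells. Of 14 myeloid and neutrophil genes 4 were lower and 10 higher, beside 58.6% and 41.4% of all genes. Their summed intensity was 503 to 817 in the arrays labelled RB-deficient, against 599.9 to 688 in the RB-proficient arrays. The groups did not overlap for 1 lower and 2 higher genes of the 14, beside 15.3% and 7.12% of all genes. CD68, a macrophage marker, was lower without overlap (difference −1.16, SE 0.47, adjusted p 0.327 by limma). PTPRC, the marker of leukocytes, had 3.45, 3.51 and 4.21 in the arrays labelled RB-deficient, against 1.35, 2.78 and 2.91 in the RB-proficient arrays. It was higher without overlap (difference 1.38, adjusted p 0.340 by limma) but lay below an intensity of 16 in 5 of 6 arrays, and 0 of the 14 genes were at the floor in any array. The integrin subunit ITGB2 was also higher without overlap (difference 0.42, SE 0.46) and lay above an intensity of 16 in all 6 arrays. Of 7 lymphocyte genes 2 were lower, where 58.6% of all genes were, with sums of 156 to 254 in the arrays labelled RB-deficient, against 147 to 149.7 in the RB-proficient arrays. CD3D was higher without overlap (difference 0.95, SE 0.51). Of 10 fibroblast genes 4 were lower, where 58.6% of all genes were. Their sums were 190.4 to 349 where labelled RB-deficient, against 195 to 242 in the RB-proficient arrays. COL3A1 and THY1 were at the floor in the array labelled RB-deficient 1. THY1 (difference −1.94, SE 1.02) was lower and DPT (1.17, SE 0.51) higher without overlap. Of 8 endothelial genes 4 were lower, where 58.6% of all genes were, with sums of 399 to 536 in the arrays labelled RB-deficient, against 569 to 695 in the RB-proficient arrays. The largest part of these sums came from CDH5, with 8.29, 7.82 and 8.07 in the arrays labelled RB-deficient, against 8.70, 8.98 and 9.10. CDH5 and PECAM1 (difference −0.79, SE 0.48) were lower without overlap, and CLDN5 (0.47, SE 0.49) was higher without overlap. Over all genes 15.3% were lower and 7.12% higher without overlap. The part of these cell markers in the results was not tested.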

How the data were processed

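Each of 6 samples was measured on 1 single-channel array. Total RNA was taken with RNA-STAT-60 from cells plus matrix, amplified with WT-Ovation Pico and labelled with biotin, per the labels' protocols. The tool was Affymetrix Expression Console 1.1, per the submitters' processing notes. How it summarised, background-corrected and normalized the probes is not given in the sources used. The values the authors deposited are linear intensities, 1 per probe set and array, whose column medians ran from 21.4 to 28.0, so no common median had been set. With no detection calls used, it is unknown which dim probe sets lay above background.

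From these, each array was multiplied to reach the median of the 6 column medians, with a floor of 1 before log2. Of 33297 probe sets 19460 had 1 gene symbol in the platform annotation, giving 18417 genes, with the brightest probe set taken where a gene had several. Each of the 31 members had 1 probe set. Group differences were fitted by lmFit and eBayes of limma 3.58.1 under R 4.3.3, two-sided and with no covariates, with Benjamini-Hochberg adjustment over all genes and a threshold of 0.05. The fit was tested on simulated data with the same spread in both groups and no floor, unlike these arrays. The number of arrays limits the precision.

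The members and lists were chosen with earlier results of these data known, so no list was tested, and shares over all genes are given beside the main counts. All members are named. Of each pathway list, up to 4 genes with the smallest p are named where the groups did not overlap, beside ACTB, GAPDH and RB1. Marker genes, other reference genes and a few further genes were named after their values were seen. Symbols with no probe set of their own are not reported. Deviations of same-numbered arrays from their group means correlated at −0.12, 0.07 and −0.11, so no pairing was used. Alternatives were quantile normalization, no scaling, centring on the gene median, a floor or offset of 16, omission of the dimmest 25% or 50% of genes, the mean of probe sets, eBayes with trend and robust, array weights, a replicate block, and omission of single arrays or of both arrays labelled RB-deficient 1 and 2. The level of ACTB, and that of EPCAM, was also held equal over the arrays, as 2 alternatives chosen after the data were seen.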

Additional observations from a re-analysis of the deposited data

How the results depend on the processing

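Across 18 alternatives, 0 members passed an adjusted p of 0.05 except 1 with a floor of 16 (S100A16) and 1 with an offset of 16 (S100A9). At these settings 0.315% and 1.05% of all genes passed, against 0.00543% in the main fit, so more genes were called at both. The count of higher members at an unadjusted p under 0.05 was 1 in place of 2 with the offset of 16, with the dimmest 25% or 50% left out, with array weights, with the replicate block and without the arrays labelled RB-deficient 1 and 2, and 1 to 3 with single arrays left out. The share of all genes called in this way was 2.19% to 3.5% at the former settings and 1.34% to 5.34% with single arrays left out. Higher members without overlap numbered 2 with the dimmest 50% left out, where 6% of all genes were. Without those 2 arrays 9 were higher and 10 lower without overlap, where 25.5% of all genes were higher and 37.6% lower in this way. With single arrays left out 5 to 8 members were lower without overlap, where 17.9% to 26.3% of all genes were. The replicate block changed no other call.

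Another 2 alternatives, chosen after the data were seen, held 1 gene equal over the arrays. With ACTB held equal, 18 members passed an adjusted p of 0.05 by limma, where 48.7% of all genes did. The same 18 were higher without overlap and 18 were higher at an unadjusted p under 0.05. Over all genes 59.8% were higher without overlap and 58.2% at that p, so these counts are near the background. Lower members numbered 0 by either measure, where 0.168% and 0.0923% of all genes were lower. The median difference was 1.67 and that of all genes 1.70, and the sign turned for 16 members, to 1.47 (LORICRIN), 1.31 (FLG), 1.71 (SPRR1A), 1.67 (SPRR1B), 1.48 (SPRR3), 1.49 (RPTN), 0.91 (PPL), 1.34 (TGM5), 0.13 (DSG1), 1.45 (S100A7), 1.54 (S100A8), 0.81 (S100A12), 0.40 (S100A14), 0.33 (S100A16), 0.20 (PI3) and 1.55 (CSTA). By construction it adds the same amount to every gene of an array. With EPCAM held equal, 9 members were lower without overlap, where 20.5% of all genes were. At that setting 1 member was higher at an unadjusted p under 0.05, where 1.66% of all genes were. The sign turned for IVL (−0.068), DSC1 (−0.15) and S100A2 (−0.034). Over all 20 alternatives 9 members kept their sign in each one in which they were tested.

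Signs also changed with low values or arrays left out, for some members that were not near 0 (S100A12 at −1.11, FLG at −0.61 and TGM5 at −0.58). With a floor of 16, FLG was at 0.11 and SPRR3 at 0.24, and with array weights DSC1 was at −0.13. Without the arrays labelled RB-deficient 1 and 2, the differences were −0.13 for IVL, 0.43 for FLG, 0.19 for SPRR3, −0.051 for CNFN, 0.29 for RPTN, −0.088 for EVPL, 1.13 for TGM5, −0.44 for DSC1 and 0.49 for S100A12. With single arrays left out, 19 members kept their sign. The others ran from −0.025 to 0.32 (IVL), −1.12 to 0.19 (FLG), −0.42 to 0.12 (SPRR1A), −1.24 to 0.45 (SPRR1B), −1.13 to 0.57 (SPRR3), −0.78 to 0.16 (RPTN), −0.084 to 0.70 (SBSN), −1.98 to 0.23 (TGM5), −0.44 to 0.35 (DSC1), −0.0074 to 0.32 (S100A2), −1.95 to 0.57 (S100A7) and −0.62 to 0.013 (S100A8). The cause was not tested. Dim genes limit these results: 9 members had a mean below an intensity of 16, and SPRR2D, SPRR2A, RPTN, FLG, CRNN, SBSN, DSC1 and S100A12 were not tested with the dimmest 25% left out.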
